A study of Mus musculus with 18 samples.

Results

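Trp63, Tfap2a, Klf5, Klf4, Ovol1, Grhl3 and Grhl1 are transcription factors that set and carry out the fate of surface epithelium. All probe sets that the platform annotation assigns to 1 of these 7 symbols were taken, which gave 16 probe sets of 45037, for 7 of the 18193 named genes. RNA had been measured on 18 Affymetrix mouse arrays, in 6 groups of 3: female wild-type mice and female K14NICDER transgenic mice each gave epidermis, dermis and intact whole skin. All mice were C57Bl6xCBA F1, were 7 weeks old when treatment began, and received 4OHT (4-hydroxytamoxifen) for 14 days, so the wild-type groups carry the drug effect too. The transgene places a Notch intracellular domain, fused to a hormone-binding domain that 4OHT activates, under the keratin 14 promoter, which is active in basal keratinocytes of epidermis and follicles. The labels do not say how many animals gave a sample or whether the layers of 1 number came from the same animal, so each p-value reflects only how these samples scatter, which may be technical.

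The 7 factors act at successive steps of the keratinocyte's life. The p63 protein made from Trp63 keeps basal cells in the stratified lineage and drives their adhesion genes, AP-2α (Tfap2a) acts beside it in surface ectoderm, and Klf5 is a factor of proliferating basal cells. Ovol1 accompanies the exit from proliferation, Klf4 the late differentiation and barrier, and the grainyhead factors Grhl1 and Grhl3 the desmosomes and the cross-linked envelope. Notch is active above the basal layer in normal skin, where it promotes the spinous programme and opposes p63.

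Values are log2 signals of the MAS5 algorithm, and a difference of 1 is a 2-fold change of signal. All 16 probe sets passed the filter on dim probe sets, a mean log2 signal above 3.15 that left 31526 for testing. A call is an adjusted p under 0.05 in limma's moderated test, with Benjamini-Hochberg adjustment over all 31526. Each gene is represented by its brightest probe set, and the others are given beside it. Since separate probe sets differ in brightness for the same RNA, no level is compared between genes.

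The layer separation could be read from marker lists. Of 12 fibroblast markers, 11 were called higher in wild-type dermis than in wild-type epidermis, with a median log2 difference of 2.58. In transgenic mice 7 of 12 were called higher, with a median of 1.48. No fibroblast marker had a negative difference in either genotype. The dermal fraction nevertheless held keratinocyte RNA: the mean of each of 14 keratinocyte markers was above the filter in all groups, and their median difference between dermis and epidermis was −0.95 in wild-type and −1.02 in transgenic mice. In bulk samples fewer cells of a type and less RNA per cell cannot be told apart, and all the member levels in dermis are subject to this. The median SD within a group was 0.492 in epidermis and 0.532 in dermis, but 0.227 in whole skin, so changes of the same size were easier to call in whole skin.

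The clearest pattern of the 7 factors was between layers. Klf5, Ovol1 and Grhl1 were lower in dermis than in epidermis in both genotypes, and Klf4 and Grhl3 were called in transgenic mice. The brightest probe sets of Trp63 and Tfap2a passed in neither genotype. By brightest probe set 3 of 7 genes were called lower in wild-type mice and 5 of 7 in transgenic mice, and none was called higher. Over all probe sets, 15.7% were called in the wild-type comparison and 7.12% were called lower in dermis, and 18.8% and 9.6% in the transgenic comparison. Counted by probe set, 10 of 16 passed in wild-type and 13 of 16 in transgenic mice. The median difference of the 7 genes was −1.21 in wild-type and −1.19 in transgenic skin, against 0.05 and 0.10 over all 13739 genes tested. The 14 keratinocyte markers had medians of −0.95 and −1.02, so a shift of this size was not particular to the 7 factors.

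**Figure D1:**
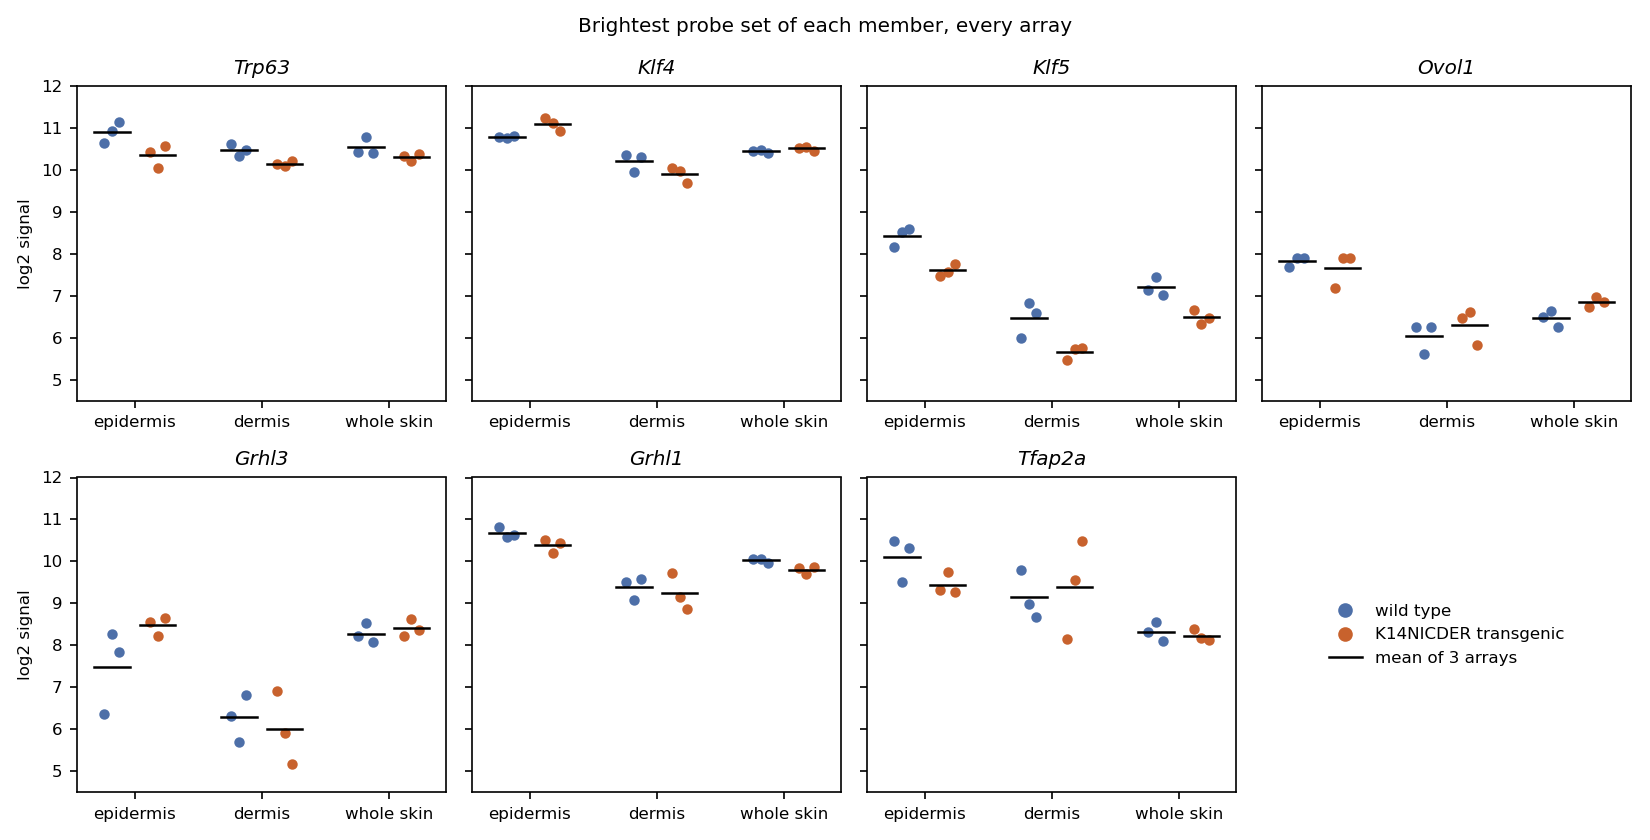
Log2 signal (vertical axes, same scale) of the brightest probe set of each of the 7 genes on every array, by tissue (horizontal axes). Blue points are wild-type arrays, orange points transgenic arrays and bars the means of 3. Klf5 and Trp63 lie lower on the transgenic arrays in all 3 tissues. For Klf5, wild-type epidermis lies at 8.16 to 8.60 and transgenic dermis at 5.48 to 5.76.

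Between genotypes no member was called in any tissue. In epidermis limma called 0 of the 16 probe sets at an adjusted p under 0.05, where 1.49% of all probe sets were called. In dermis it called 0 of 16, against 0.0222%, and in whole skin 0 of 16, against 1.56%. A difference that misses the threshold does not show that the genotypes are alike. At an unadjusted p under 0.05, 3 probe sets were higher and 6 lower in transgenic epidermis, 0 and 4 in dermis, and 2 and 3 in whole skin. Unadjusted p-values under 0.05 made up 17.9%, 3.91% and 15.5% of all probe sets in these tissues. The 3 transgenic arrays lay entirely on one side of the 3 wild-type arrays for 10 of the epidermal probe sets, 5 of the dermal and 7 of those in intact skin. The shares over all probe sets were 23%, 9.13% and 21.8%. The 10 in epidermis were 4 higher and 6 lower. Probe sets of 1 gene are not separate genes, and by brightest probe set 4, 2 and 4 of the 7 genes were separated.

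**Figure D2:**
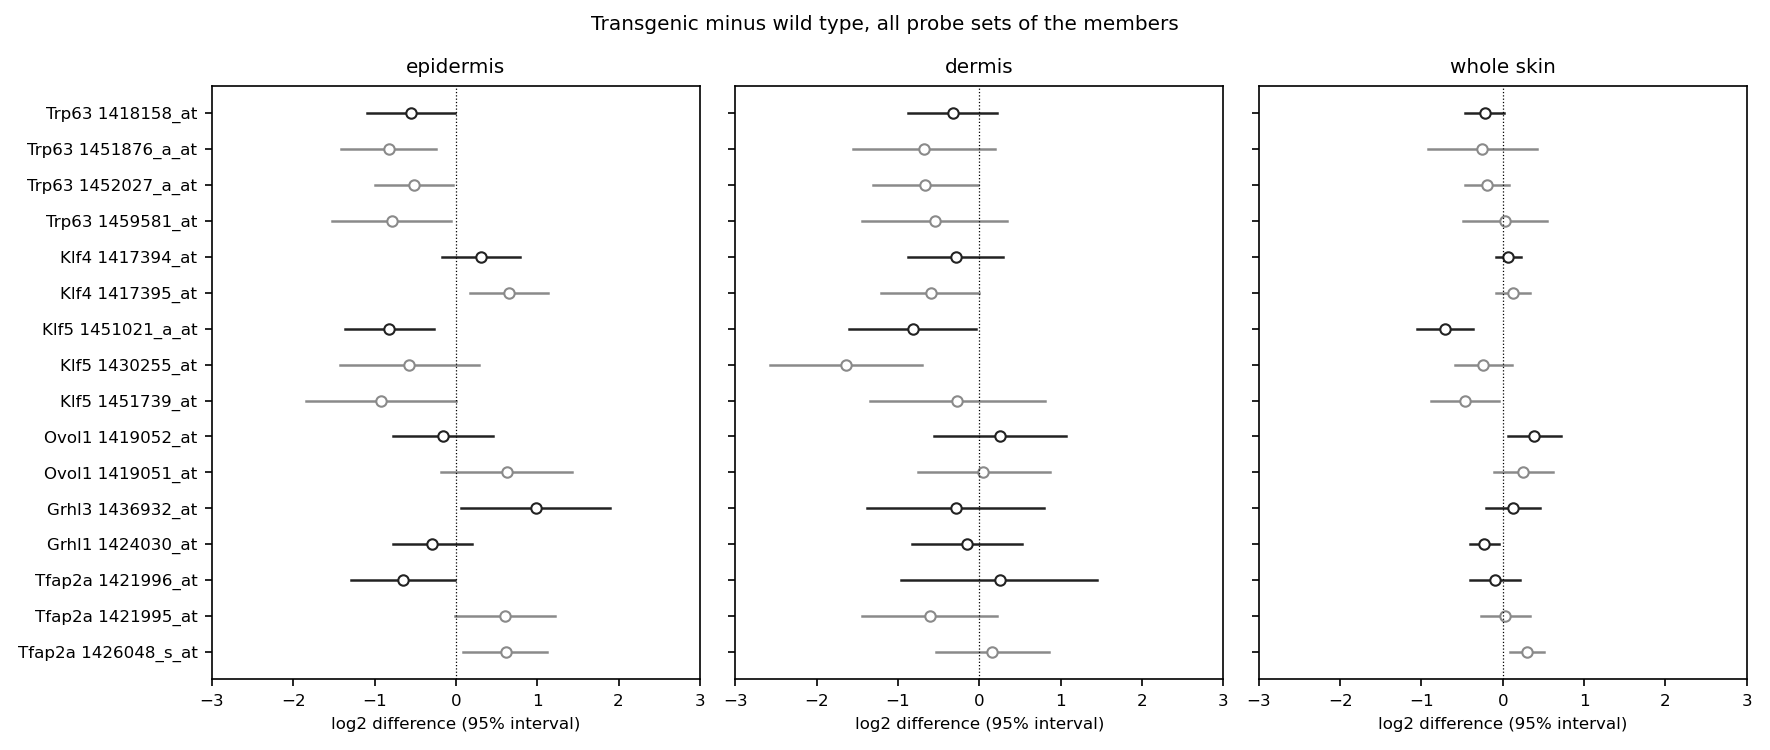
Log2 difference, transgenic minus wild type (horizontal axes), of all 16 probe sets with 95% intervals from limma, for each tissue. Black marks the brightest probe set of a gene and grey the others, and open circles are differences with an adjusted p of 0.05 or more. All circles are open. The 3 probe sets of Klf5 lie to the left of 0 in every tissue.

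Klf5, a zinc finger factor of dividing basal keratinocytes, had the smallest adjusted p of the 7 genes in epidermis and in whole skin. Its brightest probe set, 1451021_a_at, read 8.16, 8.52 and 8.60 in wild-type epidermis and 7.47, 7.58 and 7.77 in transgenic epidermis. In dermis it read 5.99, 6.84 and 6.60 in wild-type and 5.48, 5.73 and 5.76 in transgenic mice, and in whole skin 7.15, 7.44 and 7.02 against 6.66, 6.34 and 6.47. In each tissue all 3 transgenic arrays lay below all 3 wild-type arrays. The log2 differences were −0.82 ± 0.25 in epidermis (SE, n = 3 per group, adjusted p = 0.141), −0.82 ± 0.35 in dermis (adjusted p = 0.99) and −0.71 ± 0.15 in whole skin (adjusted p = 0.0572). Their 95% intervals ran from −1.37 to −0.27, from −1.60 to −0.04 and from −1.06 to −0.37. None passed the threshold. The whole skin difference passed when 1 probe set per gene was tested (adjusted p = 0.0482) and when the filter was raised to the 50th percentile (adjusted p = 0.0495), and the epidermal difference passed when all 18 arrays shared 1 estimate of spread (adjusted p = 0.0485). Scaled to a common keratinocyte marker level, the epidermal difference was −0.23 (adjusted p = 0.671). With the same scaling the dermal difference was −0.76, and the whole skin difference was −0.92 and passed (adjusted p = 0.0137).

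The other probe sets of Klf5 had negative differences as well. For 1430255_at the wild-type dermis arrays read 5.47, 5.52 and 5.53 and the transgenic ones 3.86, 4.19 and 3.55, a difference of −1.64 ± 0.42 (adjusted p = 0.853, and 0.0424 when all 18 arrays were fitted together). The transgenic arrays there lay between 3.55 and 4.19, near the filter. For 1451739_at the differences were −0.92 in epidermis, −0.27 in dermis and, in intact skin, −0.46. Between layers Klf5 was the member with the smallest adjusted p in wild-type skin: its dermis minus epidermis difference was −1.95 ± 0.28, 3.87-fold lower in dermis (adjusted p = 5.67e-04 in wild-type and 3.51e-04 in transgenic mice). The other 2 probe sets also passed, at −1.31 and −2.69 in wild-type and −2.38 and −2.03 in transgenic mice. The wild-type call at −1.31 was lost in 5 of the 12 fits that left out an array, those without any one of the wild-type dermis arrays or without wild-type epidermis replicate 2 or 3, at values between −1.42 and −1.0. It was also lost with the replicate number as a block (adjusted p = 0.0561) and with quantile normalization (adjusted p = 0.0512). The order of Klf5 levels was wild-type epidermis, transgenic epidermis, wild-type whole skin, transgenic whole skin, wild-type dermis and transgenic dermis. Transgenic whole skin (6.34 to 6.66) and wild-type dermis (5.99 to 6.84) overlapped in that order. The difference between the dermal and epidermal genotype effects was 0.00 ± 0.40, with an interval from −0.85 to 0.85.

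Trp63, whose protein p63 maintains basal keratinocytes, had 4 probe sets, and all of them had negative differences in transgenic epidermis. Over all probe sets 61.2% were negative there, with a median of −0.20. The brightest, 1418158_at, read 10.64, 10.92 and 11.14 in wild-type epidermis and 10.44, 10.05 and 10.56 in transgenic epidermis. The probe set 1451876_a_at read 7.91, 7.76 and 7.94 against 7.08, 6.75 and 7.30. In both, the 2 genotypes did not overlap. By the brightest probe set all transgenic arrays lay below all wild-type arrays in dermis and in whole skin too. The differences over the 4 probe sets ran from −0.82 ± 0.27 (1451876_a_at, adjusted p = 0.159) to −0.52 ± 0.22 (1452027_a_at, adjusted p = 0.253), with −0.55 ± 0.25 for the brightest (adjusted p = 0.271). The interval of the brightest ran from −1.09 to −0.01. The median level of the 14 keratinocyte markers was 10.95 to 11.32 on the wild-type and 10.45 to 10.62 on the transgenic epidermal arrays, without overlap. The markers did not all fall: the median of their own differences was −0.26, with 8 of 14 negative. At an unadjusted p under 0.05 in limma's test, 2 were higher and 2 lower. With arrays scaled to a common level of these markers, the Trp63 differences were 0.04, 0.07, −0.23 and −0.20. The sign of the 2 brightest probe sets thus turned. This scaling moved the median of all probe sets by 0.59. Its markers Krt5, Krt14, Cdh3, Perp, Sfn, Krt15 and Itgb4 are also in the list of p63 targets and basal genes. It could therefore remove a change that Trp63 shares with them, and the part of keratinocyte content was not tested. In dermis the 4 differences were −0.33, −0.67, −0.68 and −0.55 (adjusted p = 0.99 in each), and in whole skin −0.22, −0.19, −0.25 and 0.03. No probe set of Trp63 was called in any tissue in the main fit. At the common marker level the whole skin differences were −0.43, −0.40, −0.46 and −0.18. Of these the brightest probe set passed (adjusted p = 0.0363), while the median of all probe sets moved by −0.20 there.

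The probe sets of Trp63 differed in how strongly they separated the layers. The brightest was at −0.42 ± 0.23 in wild-type (adjusted p = 0.23) and −0.20 ± 0.23 in transgenic mice (adjusted p = 0.608). The other 3 were lower in wild-type dermis, 1459581_at at −1.84 ± 0.36 (adjusted p = 0.00374), 1451876_a_at at −1.44 ± 0.32 (adjusted p = 0.00906) and 1452027_a_at at −0.91 ± 0.24 (adjusted p = 0.0214). The call of 1452027_a_at was lost without wild-type dermis replicate 1 or 3 or wild-type epidermis replicate 1 or 3, at −0.96 to −0.79. The 3 were lower in transgenic dermis too, at −1.59, −1.30 and −1.06, and the call of 1451876_a_at was lost without transgenic dermis replicate 2 (−1.10) or transgenic epidermis replicate 3 (−1.17). By the brightest probe set the 6 groups lay close together, with means from 10.15 ± 0.06 in transgenic dermis to 10.90 ± 0.25 in wild-type epidermis (SD, n = 3). Wild-type whole skin (10.54), wild-type dermis (10.48), transgenic epidermis (10.35) and transgenic whole skin (10.31) lay between them and were within the spread of their neighbours. Trp63 gives rise to several transcripts, and which of them each probe set reads was not worked out here.

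Genes named as p63 targets, with genes of the basal layer, formed a list of 19. The direction in which p63 acts on each was not considered, so a fall does not stand for less p63 activity. In transgenic epidermis 3 of the 19 were called lower and none higher, against 2.09% of all genes called in either direction. The list's median was −0.56 beside −0.10 over all genes. Igfbp3, an insulin-like growth factor binding protein, fell by 3.90 on the log2 scale (SE 0.51, adjusted p = 0.00461), Krt15, a keratin of basal cells, fell by 3.66 (SE 0.36, adjusted p = 8.14e-04) and Col17a1, a hemidesmosome collagen, fell by 1.19 (SE 0.24, adjusted p = 0.0357). In whole skin 3 of 19 were called lower, where 2.37% of all genes were called. Igfbp3 fell by 0.90, Col17a1 by 0.70 and Fgfr2, a receptor of keratinocyte growth factors, by 0.60. Leaving out an array lost the call in 4 of 6 fits for Col17a1 in epidermis and in 5 of 6 for Fgfr2 in whole skin. In dermis none was called by limma, with 4 lower at an unadjusted p under 0.05 and a median of −0.52. Between layers 4 of the 19 were called lower and none higher in wild-type dermis, and 5 lower and 3 higher in transgenic dermis. Of all genes 17.8% and 21.4% were called in these comparisons. Evpl, envoplakin, and Sfn, the 14-3-3 protein stratifin, were lower in transgenic dermis, at −2.49 ± 0.25 and −3.44 ± 0.40, while Krt15 and Igfbp3 were higher, by 3.52 ± 0.34 and 3.84 ± 0.46.

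Tfap2a encodes AP-2α, a factor of surface ectoderm and of basal keratinocytes. Its probe sets did not agree in sign. The brightest, 1421996_at, read 10.49, 9.50 and 10.31 in wild-type and 9.32, 9.75 and 9.28 in transgenic epidermis, and the genotypes overlapped. For 1426048_s_at the readings were 8.80, 9.27 and 9.21 against 9.61, 9.83 and 9.65, and for 1421995_at 7.03, 7.35 and 6.68 against 7.77, 7.42 and 7.68. In these 2 probe sets all transgenic arrays lay above all wild-type arrays. The differences were −0.65 ± 0.29 (adjusted p = 0.278), 0.61 ± 0.24 (adjusted p = 0.22) and 0.60 ± 0.28 (adjusted p = 0.287), so no direction can be given for the gene in epidermis. Without wild-type replicate 2 the brightest probe set was called at −0.95 (adjusted p = 0.0367). Scaled to a common keratinocyte marker level, the other 2 were called at 1.2 (adjusted p = 0.0265) and 1.19 (adjusted p = 0.0469).

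In dermis the brightest probe set of Tfap2a ranged from 8.15 to 10.49 on the transgenic arrays, the widest SD of any member in any group at 1.17. Its 3 probe sets differed between genotypes by 0.25, 0.16 and −0.61 there, and −0.10, 0.30 and 0.03 in whole skin, none of them called. Between transgenic layers 1 of the 3 passed: 1421995_at was lower in dermis, at −1.39 ± 0.33 (adjusted p = 0.00843), and stood at −0.18 ± 0.33 in wild-type mice. The difference between those values, −1.21 ± 0.46, had an adjusted p of 0.66. By the brightest probe set the highest level was in wild-type epidermis (10.10 ± 0.53) and the lowest in transgenic whole skin (8.23 ± 0.14), and the groups between them overlapped with at least 1 neighbour.

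Klf4, a zinc finger factor of differentiating keratinocytes that is needed for the skin barrier in mice, had epidermal differences of the opposite sign to Klf5, none of them called. Its brightest probe set, 1417394_at, read 10.79, 10.77 and 10.81 in wild-type and 11.24, 11.11 and 10.94 in transgenic epidermis. The second, 1417395_at, read 10.12, 10.05 and 9.85 against 10.64, 10.73 and 10.60. In both, all transgenic arrays lay above the wild-type ones, by 0.31 ± 0.22 (adjusted p = 0.466) and 0.65 ± 0.22 (adjusted p = 0.169), and neither was called. The second passed with all 18 arrays in the fit (adjusted p = 0.0381) and, at 1.24, when arrays were scaled to a common keratinocyte marker level (adjusted p = 0.0202). In dermis 1417395_at read 9.12, 9.18 and 8.68 in wild-type and 8.26, 8.61 and 8.30 in transgenic mice, with no overlap, a difference of −0.60 ± 0.27 (adjusted p = 0.99). In whole skin the Klf4 genotypes overlapped, and the 2 differences were 0.07 ± 0.07 and 0.13 ± 0.09, with intervals from −0.08 to 0.23 and from −0.08 to 0.34.

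The genotype effect of Klf4 in dermis minus that in epidermis was −1.26 ± 0.32 for 1417395_at (unadjusted p = 0.00149, adjusted p = 0.441) and −0.60 ± 0.32 for 1417394_at (adjusted p = 0.668). Limma called 0% of all probe sets for this difference, with 2333 of 31526 at an unadjusted p under 0.05, 2 of them among the 16 of the members. Between layers Klf4 was lower in transgenic dermis at −1.19 ± 0.22 (adjusted p = 0.00228) and −2.27 ± 0.23 (adjusted p = 2.91e-05), the latter a 4.82-fold difference. In wild-type mice the brightest probe set was at −0.59 ± 0.22 (adjusted p = 0.0885) and the second lower at −1.01 ± 0.23 (adjusted p = 0.00891), a call lost without wild-type dermis replicate 3 (−0.86). By the brightest probe set the order was transgenic epidermis (11.10 ± 0.15), wild-type epidermis (10.79 ± 0.02), transgenic whole skin (10.51 ± 0.04), wild-type whole skin (10.44 ± 0.04), wild-type dermis (10.20 ± 0.22) and transgenic dermis (9.91 ± 0.18). The 2 whole skin groups overlapped, as did the 2 dermis groups. Macrophages, fibroblasts and vessels are also known to express Klf4, and the cells behind its signal in dermis were not determined.

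**Figure D3:**
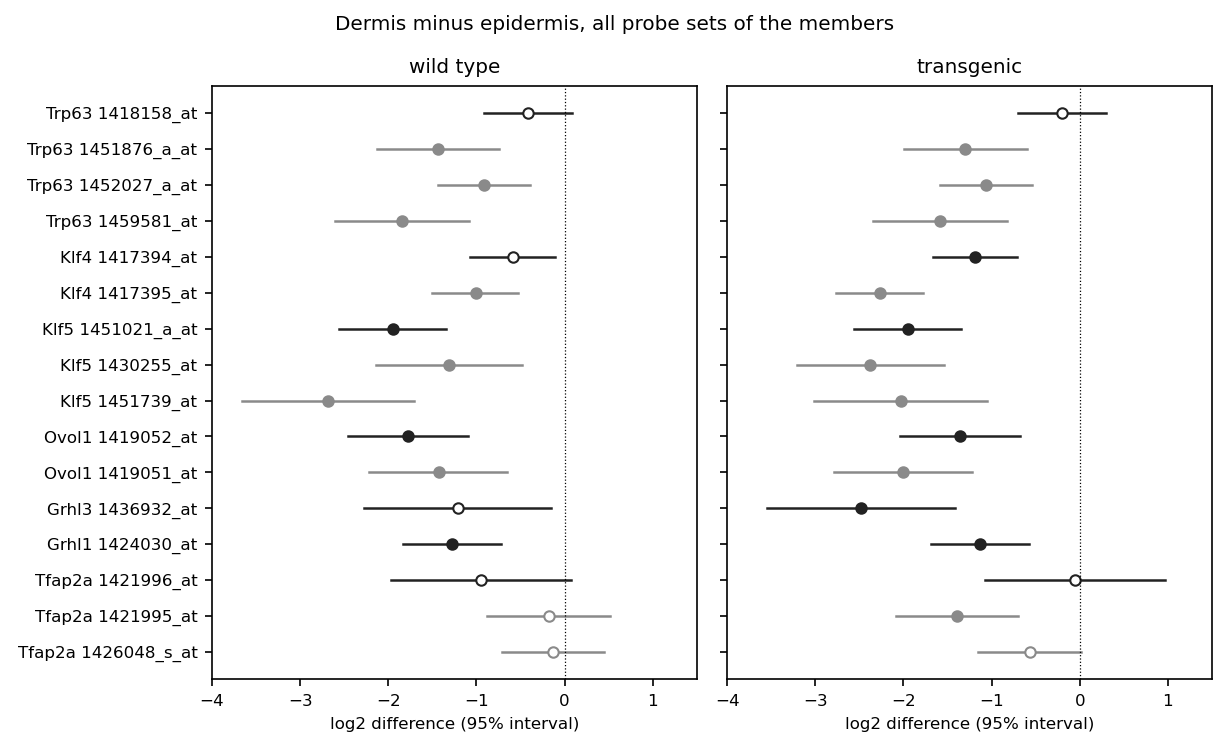
Log2 difference, dermis minus epidermis (horizontal axes), of all 16 probe sets with 95% intervals from limma, in wild-type and in transgenic mice. Filled circles passed an adjusted p of 0.05, black marks the brightest probe set of a gene and grey the others. All circles lie left of 0, and 10 are filled in wild-type and 13 in transgenic mice.

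Ovol1, a zinc finger repressor that accompanies withdrawal from the cell cycle, was the member with the clearest layer difference after Klf5 in wild-type mice. Its brightest probe set, 1419052_at, read 7.68, 7.91 and 7.90 in wild-type epidermis and 6.27, 5.61 and 6.27 in wild-type dermis. The dermal level was lower, at −1.78 ± 0.32 (adjusted p = 0.00221), and in transgenic mice at −1.36 ± 0.32 (adjusted p = 0.00843). The second probe set was lower too, at −1.43 and −2.01, and its wild-type call was lost without wild-type dermis replicate 2 or 3 or wild-type epidermis replicate 2, at −1.34 to −1.10. In epidermis the genotypes overlapped, at −0.16 ± 0.28 and 0.63 ± 0.37 for the 2 probe sets. In whole skin the brightest read 6.50, 6.64 and 6.27 in wild-type and 6.73, 6.98 and 6.85 in transgenic mice, without overlap, a difference of 0.39 ± 0.15 (adjusted p = 0.236). The order of levels was both epidermis groups, both whole skin groups and both dermis groups, and the genotypes overlapped in epidermis and dermis but not in whole skin. Wild-type whole skin (6.27 to 6.64) overlapped with transgenic dermis (5.83 to 6.61).

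Grhl3, a grainyhead factor of the granular layer and of wound closure, had 1 probe set. It read 6.37, 8.28 and 7.84 in wild-type epidermis and 8.57, 8.22 and 8.66 in transgenic epidermis. Wild-type replicate 1 stood apart at 6.37, and the genotypes overlapped. The difference was 0.98 ± 0.42 (adjusted p = 0.259). Leaving out wild-type replicate 1 gave 0.42, and leaving out replicate 2 gave 1.37, which passed (adjusted p = 0.0495). In dermis it read 6.33, 5.71 and 6.82 in wild-type and 6.92, 5.91 and 5.18 in transgenic mice. In whole skin it read 8.22, 8.54 and 8.09 against 8.22, 8.64 and 8.36, so the genotypes overlapped in each tissue. Grhl3 was lower in transgenic dermis than in transgenic epidermis at −2.48 ± 0.50, a 5.59-fold difference (adjusted p = 0.00341), and stood at −1.21 ± 0.50 in wild-type mice (adjusted p = 0.11, and 0.0301 without epidermal wild-type replicate 1). The 2 layer differences differed by −1.27 ± 0.70 (adjusted p = 0.668). Whole skin and epidermis overlapped for this gene in both genotypes: the whole skin means were 8.28 ± 0.23 and 8.41 ± 0.21, against 7.50 ± 1.0 and 8.48 ± 0.23 in epidermis.

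Grhl1, the grainyhead factor known in mice for desmosomal cadherins, read 10.82, 10.59 and 10.62 in wild-type and 10.50, 10.21 and 10.45 in transgenic epidermis. In whole skin it read 10.06, 10.06 and 9.97 against 9.85, 9.71 and 9.86. In both tissues all transgenic arrays lay below the wild-type ones, at −0.29 ± 0.22 (adjusted p = 0.491) and −0.23 ± 0.08 (adjusted p = 0.211). In dermis the genotypes overlapped, at 9.52, 9.09 and 9.59 against 9.73, 9.15 and 8.87. Grhl1 was lower in dermis than in epidermis at −1.28 ± 0.26 in wild-type (adjusted p = 0.00507) and −1.13 ± 0.26 in transgenic mice (adjusted p = 0.00759). Scaled to a common keratinocyte marker level, the wild-type difference was −0.56 and not called (adjusted p = 0.165). Its order was wild-type and transgenic epidermis, wild-type and transgenic whole skin, then wild-type and transgenic dermis. Transgenic dermis, with its highest array at 9.73, overlapped with wild-type dermis and with transgenic whole skin.

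The table of RefSeq promoters (GRCm38.p6, 250 bases before to 50 after a start) held windows for 4 of the 7 genes: Klf4, Grhl3, Grhl1 and Tfap2a, 6 windows in all. They were searched on both strands for the core of the motif bound by RBPJ, the DNA-binding partner of the Notch intracellular domain, and for motifs of factor families in the list. The RBPJ core TGGGAA was found in 1 window each of Grhl3, starting at base 98 on the opposite strand, and Tfap2a, starting at base 238, and in 25.6% of all 32851 windows. The 3 windows below are shown because they set the 2 with the core beside that of Klf4, which held none. Each is written 5′ to 3′ on the gene's strand with the RBPJ core in capitals, and all 3 genes lie on the minus strand, at chr4:135573583-135573882, chr13:40734871-40735170 and chr4:55532426-55532725.
Grhl3: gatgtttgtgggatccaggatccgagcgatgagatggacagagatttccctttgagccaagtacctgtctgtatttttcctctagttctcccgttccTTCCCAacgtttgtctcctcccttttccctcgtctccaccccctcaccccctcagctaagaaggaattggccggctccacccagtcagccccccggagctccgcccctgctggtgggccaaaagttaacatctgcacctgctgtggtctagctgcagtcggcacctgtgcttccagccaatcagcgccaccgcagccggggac
Tfap2a: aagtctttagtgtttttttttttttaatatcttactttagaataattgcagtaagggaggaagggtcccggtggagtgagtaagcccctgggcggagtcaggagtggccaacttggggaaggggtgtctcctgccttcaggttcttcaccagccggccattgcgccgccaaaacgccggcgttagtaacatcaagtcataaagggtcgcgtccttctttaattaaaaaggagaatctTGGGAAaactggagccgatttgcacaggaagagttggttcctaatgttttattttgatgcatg
Klf4: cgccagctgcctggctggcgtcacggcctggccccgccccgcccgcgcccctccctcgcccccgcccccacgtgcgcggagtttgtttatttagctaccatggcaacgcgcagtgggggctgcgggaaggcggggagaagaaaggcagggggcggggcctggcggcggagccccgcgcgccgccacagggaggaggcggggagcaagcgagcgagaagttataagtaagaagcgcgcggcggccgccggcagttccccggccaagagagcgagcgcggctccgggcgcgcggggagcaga
The AP-2 motif GCCNNNGGC was found in the Klf4 window and in 1 of 2 Grhl1 windows, and in 16.6% of all windows. The KLF motif CACCC was found in the Grhl3 window, in both Tfap2a windows and in 1 of 2 Grhl1 windows, and in 57.5% of all. The grainyhead motif AACCNGTT (2.09% of all) and the AP-1 motif TGANTCA (7.81% of all) were found in none of the 6. No match overlapped a match of another motif. A match describes letters only, and nothing here shows binding.

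Genes of the barrier and the cornified envelope, many of them known targets of Klf4 and the grainyhead factors, formed a list of 27 tested genes. In transgenic epidermis 4 were called higher and 1 lower, against 2.09% of all genes called in either direction, with a list median of 0.22. Sprr1b, an envelope precursor, rose by 4.64 ± 0.57 (adjusted p = 0.0032), Flg, the filaggrin of the granular layer, by 2.90 ± 0.22 (adjusted p = 4.55e-04) and Casp14, the protease that processes filaggrin, by 2.54 ± 0.28 (adjusted p = 0.00166). Alox12, a lipoxygenase, fell by 1.91 (SE 0.36, adjusted p = 0.0249), a call lost in 3 of 6 fits that left out an array. In whole skin 5 were called higher and 1 lower, against 2.37% of all genes called. Sprr1b, Flg, Casp14 and Alox12 changed by 5.13, 2.48, 1.89 and −1.58. In dermis limma called none, with 1 higher and 2 lower at an unadjusted p under 0.05 and a median of −0.29. Between layers 17 of the 27 were called lower and 1 higher in wild-type dermis, and 21 were called lower in transgenic dermis. The list medians were −1.67 and −2.23, and 17.8% and 21.4% of all genes were called. Ivl, the envelope protein involucrin, was lower in dermis at −2.69 ± 0.39 in wild-type and −3.67 ± 0.39 in transgenic mice, and Evpl, envoplakin, at −1.95 and −2.49.

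Other transcription factors of epidermis and follicle formed a list of 45 tested genes, with a median of 0.00 in epidermis. In transgenic epidermis 3 were called higher and 2 lower, against 2.09% of all genes called. Runx1, a factor of follicle stem cells, rose by 2.58 ± 0.32 (adjusted p = 0.00364), Ehf, an ETS factor of differentiating epithelia, by 1.79 ± 0.26 (adjusted p = 0.0084) and Sox9, a factor of follicle stem cells and outer root sheath, by 1.51 ± 0.28 (adjusted p = 0.026). Satb1, a chromatin organiser, and Gata3, a factor of inner root sheath and epidermis, fell by 1.55 (adjusted p = 0.0172) and 1.49 (adjusted p = 0.0223). When each array was left out in turn, the epidermal call was lost in 5 of 6 fits for Sox9, 4 for Gata3, 3 for Satb1, 1 for Ehf and none for Runx1. The other probe sets of these genes lay between 0.12 and 2.53 for Runx1, 1.14 and 1.36 for Ehf, 0.62 and 1.02 for Sox9, and −2.65 and −1.13 for Satb1.

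In whole skin 5 of the 45 were called higher and 1 lower, against 2.37% of all genes called. Runx1 rose by 0.78 ± 0.10 (adjusted p = 0.00678), Ehf by 0.83 ± 0.14 (adjusted p = 0.0226), Cebpb, a factor of differentiating keratinocytes and of inflammation, by 0.67 ± 0.09 (adjusted p = 0.00896), Jun by 0.76 ± 0.11 (adjusted p = 0.0132) and Myc by 0.62 ± 0.12 (adjusted p = 0.0381). Satb1 fell by 0.78 (adjusted p = 0.0493). Leaving out an array lost the call in 6 of 6 fits for Myc, 5 for Satb1, 4 for Ehf, 2 for Jun, 1 for Cebpb and none for Runx1. In dermis limma called none of the 45, with 1 higher and 3 lower at an unadjusted p under 0.05, against 0.0509% of all genes called. Between layers 12 were called lower and 6 higher in wild-type dermis, and 11 and 8 in transgenic dermis, against 17.8% and 21.4% of all genes called. Pou2f3, a POU factor of suprabasal cells, was lower, at −2.21 ± 0.35 and −3.65 ± 0.35. Dlx3, a homeobox factor of terminal differentiation, was lower, at −2.99 ± 0.55 in wild-type mice. Among those called higher in wild-type dermis were Runx1, at 1.97 ± 0.31 (adjusted p = 0.000984), and Sox9, at 1.48 ± 0.28 (adjusted p = 0.00363). Their other probe sets ran from −0.65 to 2.43 and from −0.19 to 0.92 there. In transgenic mice Runx1 and Sox9 stood at −0.07 and 0.07, not called.

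**Figure D4:**
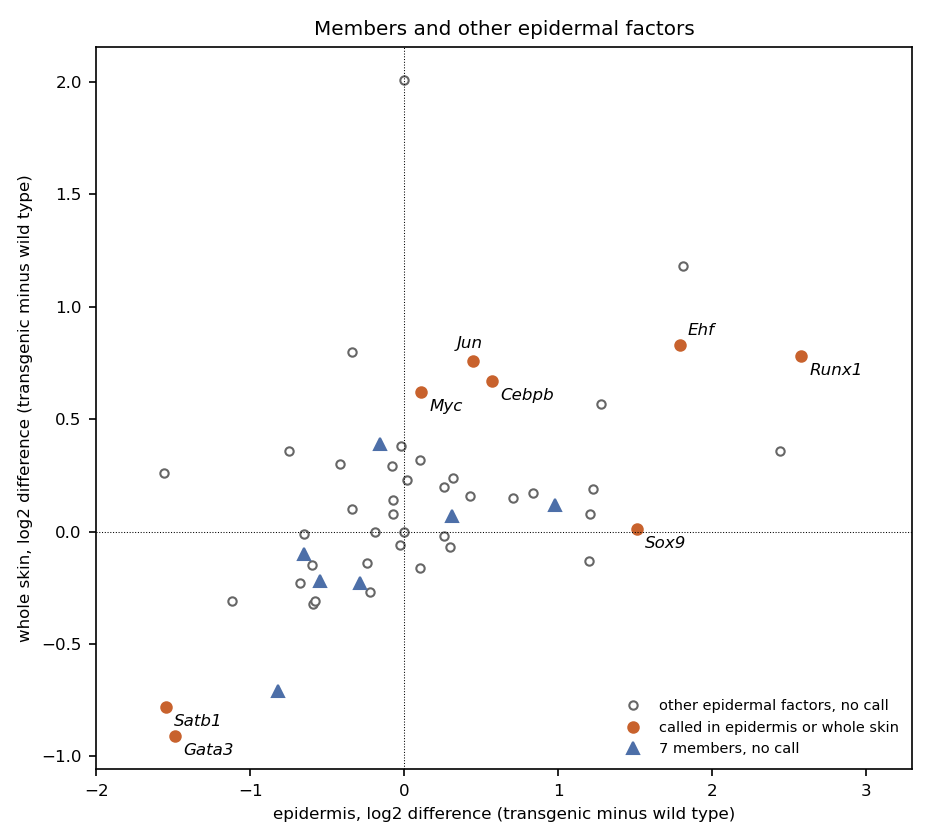
Log2 difference, transgenic minus wild type, in epidermis (horizontal axis) and whole skin (vertical axis), for the 7 members (blue triangles) and 45 other epidermal factors (circles). Orange circles were called in epidermis or whole skin. Klf5, the lowest triangle, lies at −0.82 and −0.71, while Runx1 lies farthest right at 2.58.

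Some markers of the cells that a sample could hold moved with genotype in epidermis. The summed signal of 14 keratinocyte markers, on a log2 scale, was 14.99 to 15.81 in wild-type and 14.84 to 15.08 in transgenic epidermis, and 1 of the 14, Krt15, was called, lower. Their median level, unlike the sum, did not overlap, at 10.95 to 11.32 against 10.45 to 10.62. Of 12 fibroblast markers 3 were called higher, among them Col6a2 by 2.63 ± 0.30 and Col6a1 by 2.55 ± 0.43. The summed signal of the 12 was 12.04 to 13.23 against 13.32 to 13.92. Of 9 macrophage markers Ctss was called higher, and their summed signal was 10.52 to 11.39 against 11.62 to 12.09. Unlike the sums, the median levels of both lists overlapped between genotypes. They were 6.46 to 7.84 against 7.39 to 8.65 for fibroblast and 5.27 to 5.62 against 5.55 to 6.52 for macrophage markers. Differences were negative for 3 of the 12 fibroblast and 2 of the 9 macrophage markers. Of 10 endothelial and 6 melanocyte markers none was called, and the means of 4 of each lay below the filter in wild-type epidermis. Of 10 muscle markers Acta2 was called higher, while 7 of the 10 had negative differences and the list's median was −0.32. Leaving out an array lost the call in 5 of 6 fits for Ctss and in 3 of 6 each for Acta2 and Col6a1. In whole skin keratinocyte markers summed to 14.14 to 14.38 against 14.34 to 14.45, with none called. Their median level did not overlap there either, at 10.29 to 10.47 in wild-type and 10.54 to 10.63 in transgenic mice. The direction was opposite to that in epidermis. Of the fibroblast markers 2 were called higher and 1 lower in whole skin. In dermis the keratinocyte markers summed to 14.41 to 14.80 against 14.11 to 15.03, and limma called none of any list there. The part of these markers in the member differences was not tested.

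Over the 18 arrays, the genes most like each member were listed by Pearson's r among 13732 other genes, as a description only, since arrays of 1 tissue share its composition. Klf4 was nearest to Klk11 (r = 0.954), Mst1r (0.953) and Rassf7 (0.951), and Klf5 to Tead4 (0.962), Cfap57 (0.958) and Qrich1 (0.953). The genes nearest to Ovol1 were Ereg (0.966), Slc22a23 (0.961) and Dusp5 (0.931), and those nearest to Grhl1 were Pla2g2f (0.962), Lsr (0.955) and Eps8l1 (0.953). For Grhl3 they were Orm1 (0.941), Rnf225 (0.94) and Cldn1 (0.938). Trp63 had lower values, with Fbxw7 at 0.893 and Ptpn21 and Mcc at 0.89. The brightest probe set of Tfap2a was nearest to Rps20 (0.979), Chfr (0.979) and Ncstn (0.975).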

How the data were processed

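Arrays of 3 tissues and 2 genotypes were analysed, 18 in all. Per the submitters' processing notes the authors used MAS5, with no version or settings stated. The deposited table holds log2 values of that signal, a scale read from the numbers: set back to the linear scale, their mean without the top and bottom 2% lay between 98.92 and 99.52 on all arrays. The values were used as deposited. Dim probe sets spread widely on this scale. Names came from the platform annotation checked against RefSeq (GRCm38.p6), which changed 0 symbols, and left 9160 of 45037 probe sets unnamed. Probe sets above the 30th percentile of mean signal were tested with limma 3.58.1 under R 4.3.3, with 1 mean per group and a prior following mean expression. Genotypes were compared within the 6 arrays of a tissue, and layers within the 12 arrays of both, since the spread differed between tissues. The fit was tested on simulated data. Replicate numbers were not used to pair samples in the main fit. Correlations of the deviations of same-numbered arrays ran from −0.33 to 0.40. Between transgenic layers they were 0.40, 0.16 and 0.0, and 2 of 3 dermis arrays were most like the epidermis array of their own number. Between wild-type layers they ran from −0.04 to 0.05. Whether layers of 1 number came from the same animal is not known. The members and lists were chosen with earlier results of these data known. Named genes were the 7 members, and of the other lists the called genes with the smallest p, up to 6 factors, 4 targets or 3 markers per comparison. The number of arrays limits the precision. Alternatives were another array set, 1 probe set per gene, 16 added on the linear scale, quantile and percentile scaling, other filters, a replicate block and leaving out arrays. Scaling to keratinocyte markers was chosen after seeing the data.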

Additional observations from a re-analysis of the deposited data

Results flagged for a closer look

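Klf4 probe set 1417395_at was picked from the 16 because it separated the genotypes in opposite directions in the 2 layers. All 3 transgenic arrays lay above all 3 wild-type arrays in epidermis (0.65 ± 0.22) and below them in dermis (−0.60 ± 0.27). Limma called neither (adjusted p = 0.169 and 0.99). For the brightest Klf4 probe set, 1417394_at, the genotypes overlapped in dermis (−0.29 ± 0.26). Over all probe sets, 23% were separated in either direction in epidermis and 9.13% in dermis. The test of the difference between the layers gave −1.26 ± 0.32 (limma, adjusted p = 0.441), which did not pass. Groups held 3 arrays each, so no array was tested as an outlier.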

How the results depend on the processing

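Counted by brightest probe set, the counts of 0 called members held in dermis and in the layer difference of genotype effects under every alternative. In epidermis 1 member was called with all 18 arrays (Klf5) and 1 at a common keratinocyte marker level (Grhl3), and 0 to 2 when an array was left out, with 2 (Grhl3 and Tfap2a) without wild-type replicate 2. In whole skin 1 was called with 1 probe set per gene and 1 with the 50th percentile filter (Klf5 in both), 3 at the keratinocyte marker level (Trp63, Klf5, Grhl1) and 0 without any one array. Among the other probe sets, Klf4 1417395_at in epidermis and Klf5 1430255_at in dermis passed with all 18 arrays. Between wild-type layers 5 were called with all 18 arrays, 2 at the keratinocyte marker level (Klf5 and Ovol1), and 3 to 4 when an array was left out, and between transgenic layers 5 under each of these. Apart from the Klf5 layer difference of genotype effects, at 0.00, no member changed direction under the other scalings, filters and fits, except the keratinocyte marker level and leaving out an array.

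The keratinocyte marker scaling, chosen after seeing the data, moved the median of all probe sets by 0.59 in epidermis, −0.20 in whole skin, 0.72 and 0.19 between wild-type and transgenic layers and −0.53 for the layer difference of genotype effects. It turned the sign of 20 values. In epidermis Trp63 became 0.04 and 0.07, Klf5 (1430255_at) 0.01, Ovol1 0.43 and Grhl1 0.30. In whole skin Trp63 (1459581_at) became −0.18, Klf4 −0.13 and −0.07, Grhl3 −0.08 and Tfap2a (1421995_at) −0.17. Between layers Trp63 became 0.30, Klf4 0.13 and Tfap2a 0.59 and 0.54 in wild-type and Tfap2a 0.14 in transgenic mice. For the layer difference of genotype effects Trp63 became −0.31, −0.39 and −0.28, Ovol1 −0.11 and Grhl1 −0.39. The cause was not tested.

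Leaving out 1 array turned the sign of small differences. Ovol1 ranged from −0.29 to 0.08 in epidermis. In dermis Klf5 (1451739_at) ranged from −0.63 to 0.04, Ovol1 from −0.06 to 0.26, Grhl3 from −0.74 to 0.12, Grhl1 from −0.39 to 0.04 and Tfap2a from −0.30 to 0.87 and −0.04 to 0.44. In whole skin Trp63 ranged from −0.51 to 0.03 and −0.15 to 0.22, and Tfap2a from −0.21 to 0.02 and −0.05 to 0.10. Between transgenic layers Tfap2a ranged from −0.60 to 0.57. For the layer difference of genotype effects Trp63 ranged from −0.27 to 0.06, −0.19 to 0.34 and −0.02 to 0.46 and Grhl1 from −0.10 to 0.33.

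Whether the replicate numbers pair the samples is not known. With a replicate block the member counts by brightest probe set stayed at 0 in each tissue, 3 and 5 between layers. The wild-type layer call of Klf5 1430255_at was lost with the block (adjusted p = 0.0561). Over all probe sets the block called 192 epidermal, 6 dermal and 340 whole skin differences, 4038 and 5115 between layers and 1 for the layer difference of genotype effects. Counts over all probe sets ranged over the alternatives from 88 to 2401 in epidermis, 1 to 56 in dermis, 34 to 1437 in whole skin, 2303 to 8488 and 3054 to 8979 between layers and 0 to 45 for the layer difference. In epidermis 291 were higher and 179 lower, against 871 and 940 with all 18 arrays and 2295 and 106 at the keratinocyte marker level, which gave 207 and 1230 in whole skin. Dim probe sets, such as Klf5 1430255_at in transgenic dermis, limit the precision.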
